A study of Mus musculus with 17 samples.

Results

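Cell cycle and DNA replication genes were followed in fat-like implants and in fat depots of mice. They were the rows of the deposited expression table that carried 36 listed symbols, 36 of the 54658 genes in the table, and all 36 were found. Of these, 12 serve DNA replication and 24 serve the cyclins, mitosis and cell division. The study asked how leptin and complement factor D made by fat bear on joint damage and pain. Mouse embryonic fibroblasts (MEF) from wild-type (WT) pups or from pups homozygous for a leptin knockout (KO) were injected under the skin over the sternum of mice of a type named LD, at 3 to 5 weeks of age. There they formed fat-like tissue. Surgical animals had the medial meniscus of the left knee destabilized at 16 weeks, and tissue was taken at 28 weeks. RNA was sequenced in 16 libraries, 2 for each of 8 group codes.

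The KO implants were those of males (MKM) and females (MKF), both after surgery, and the WT implants were those of males (MWM) and females (MWF), both after surgery. Visceral fat of the animal itself came with surgery (EVM), without surgery (EVFN) and under a code that is not spelled out (EVFY), and no sex is spelled out for these 3 codes. Subcutaneous fat of the animal itself came from males after surgery (ESM), and a 17th sample, coded ESF, was not used here. An implantation age is given for the implant samples and not for the fat samples, so implant and fat are not paired by animal here. The design text calls the hosts male while some codes name females, and the type LD is not explained. The labels do not say how much of an implant was made of donor cells, nor whether the 2 libraries of a code are 2 animals. The p-values therefore speak of the spread between libraries alone, which may be technical. The libraries EVFN1 and MKM1 are given singly throughout and enter no group mean, which left 3 KO implant, 4 WT implant, 5 visceral fat and 2 subcutaneous fat libraries.

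Before a cell copies its DNA, the MCM helicase is loaded onto replication origins by Cdc6 and Cdt1, and Pcna then clamps the polymerases to the template while ribonucleotide reductase and thymidylate synthase supply nucleotides. In mitosis, cyclin B with Cdk1 drives entry, kinesins and the centromere proteins move the chromosomes, and the anaphase-promoting complex (APC/C) with Cdc20 and Ube2c ends it by degrading the cyclins. Transcripts of these genes are abundant in dividing cells and scarce in resting ones. Mature adipocytes do not divide, and dividing cells of fat are known mainly among its progenitors, vessel cells and immune cells. In bulk RNA, fewer dividing cells and less of these transcripts per cell cannot be told apart.

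The table gives CPM, the reads of a gene out of each 1000000 reads of its library. Libraries held 16444965 to 25805502 reads, and the members together took 3539 reads in EVFN2 to 28113 reads in MWF2. Single members held from 4 reads (Bub1 in MKM1) to 3847 reads (Mki67 in MWF2). All libraries are labelled as ganglia, yet 8 adipocyte markers (among them Adipoq, Plin1 and Fabp4) summed to 10941 to 37419 CPM, whereas 11 sensory neuron markers summed to 8.50 to 66.9 CPM. The leptin transcript Lep stood at 1336, 1644 and 1726 CPM in the KO implants (MKM2, MKF1 and MKF2), against 1888, 2675, 806 and 1019 CPM in the WT implants. The labels do not describe the knockout allele, so this level is no test of the genotype. Cfd, for complement factor D, stood at 102, 91.4 and 104 CPM in MKM2, MKF1 and MKF2, whereas MKM1 held 14068 CPM and EVFN1 81.8 CPM. Upk3b, known from the mesothelium that covers visceral fat, was at 200 CPM in MKM1 and 0.0580 CPM in EVFN1, against 0 CPM in MKM2 and 148 CPM in EVFN2. MKM1, labelled as male, held 352 CPM of Xist and no read of the Y-linked Ddx3y. EVFN1, whose code has no sex spelled out, held 278 CPM of Xist together with 29.3 CPM of Ddx3y. The libraries labelled MKM1 and EVFN1 thus went against their labels, and no library was reassigned. MWM1 and MWM2, labelled as male, held Xist at 494 and 466 CPM together with Ddx3y at 13.1 and 17.3 CPM, whereas MKM2 held 3.77 and 80.6 CPM of these. The MWM libraries thus went against their label in Xist, and MKM2 did not. Male and female below are the words of the labels, and the groups so named do not separate the sexes. EVM1 and EVM2 held Ddx3y at 90.7 and 95.5 CPM, and EVFY1, EVFY2 and EVFN2 held no read of it and Xist at 273 to 644 CPM.

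Promoters of the members are shown because the replication and the mitotic members differed in the motifs they held, a feature that played no part in choosing them. RefSeq promoters of GRCm38.p6 (250 bases before to 50 after the start of a gene) were at hand for 30 of the 36 members and for 27025 genes in all. Searched on both strands were the cell cycle homology region (CHR, TTTGAA), the CCAAT box (CCAAT) and E2F sites in any of these forms: TTCCCGC as the first form, TTGGCGC as the second, TTCGCGC as the third or TTGCCGC as the fourth. CHR occurred in 14 of 19 mitotic promoters (73.7%) and 1 of 11 replication promoters (9.09%), against 18.1% of all promoters. CCAAT occurred in 89.5% of the mitotic and 72.7% of the replication promoters, against 37.9% of all. An E2F site occurred in 15.8% of the mitotic and 72.7% of the replication promoters, against 9.69% of all. The 14 mitotic promoters with CHR all held CCAAT too, a pair present in 7.12% of all promoters. A match describes these letters only and is no evidence of binding.

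The 3 mitotic promoters with most matches follow, and 3 of the 4 replication promoters with most, since Mcm7 equalled Mcm3 and Mcm5 with 6 and is not shown, 5′ to 3′ on the strand of the gene and with matches in capitals. Top2a (chr11:99024140-99024439, minus strand), for the topoisomerase that untangles chromosomes, held 2 CHR and 6 CCAAT matches. Cdk1 (chr10:69352863-69353162, minus strand), the kinase of mitotic entry, held 2 CHR, 3 CCAAT and 2 E2F matches, and Ube2c (chr2:164769679-164769978, plus strand), the ubiquitin-conjugating enzyme of the APC/C, held 1 CHR and 6 CCAAT matches. Mcm6 (chr1:128359656-128359955, minus strand) held 2 CCAAT and 5 E2F matches, and Mcm3 (chr1:20820263-20820562, minus strand) and Mcm5 (chr8:75109259-75109558, plus strand), further helicase subunits, held 3 of each. Neighbouring matches shared 2 bases in Ube2c, 8 in Mcm6 and 4 each in Mcm3 and Mcm5.
Top2a: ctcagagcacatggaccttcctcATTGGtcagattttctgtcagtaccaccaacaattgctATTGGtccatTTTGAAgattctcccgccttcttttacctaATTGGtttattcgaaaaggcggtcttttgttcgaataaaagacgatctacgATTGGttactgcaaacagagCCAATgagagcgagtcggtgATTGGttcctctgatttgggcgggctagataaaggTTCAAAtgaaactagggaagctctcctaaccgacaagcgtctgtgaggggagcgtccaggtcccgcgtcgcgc
Cdk1: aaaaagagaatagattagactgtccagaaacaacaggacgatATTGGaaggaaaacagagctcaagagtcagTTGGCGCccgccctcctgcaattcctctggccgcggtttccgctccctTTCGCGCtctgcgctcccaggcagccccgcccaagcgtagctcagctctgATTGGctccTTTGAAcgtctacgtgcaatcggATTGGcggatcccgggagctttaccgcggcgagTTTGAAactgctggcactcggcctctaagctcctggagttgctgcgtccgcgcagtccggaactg
Ube2c: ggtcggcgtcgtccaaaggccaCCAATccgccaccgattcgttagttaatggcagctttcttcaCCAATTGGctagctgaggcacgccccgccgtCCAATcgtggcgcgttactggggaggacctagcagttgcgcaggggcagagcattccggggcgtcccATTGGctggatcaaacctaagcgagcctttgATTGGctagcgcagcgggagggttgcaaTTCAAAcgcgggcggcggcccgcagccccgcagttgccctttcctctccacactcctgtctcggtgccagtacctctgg
Mcm6: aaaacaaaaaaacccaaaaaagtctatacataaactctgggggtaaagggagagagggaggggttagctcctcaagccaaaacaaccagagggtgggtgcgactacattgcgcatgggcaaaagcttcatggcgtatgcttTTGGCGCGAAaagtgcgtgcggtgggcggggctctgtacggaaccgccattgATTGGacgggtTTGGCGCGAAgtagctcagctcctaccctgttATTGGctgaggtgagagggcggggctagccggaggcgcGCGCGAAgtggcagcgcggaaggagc
Mcm3: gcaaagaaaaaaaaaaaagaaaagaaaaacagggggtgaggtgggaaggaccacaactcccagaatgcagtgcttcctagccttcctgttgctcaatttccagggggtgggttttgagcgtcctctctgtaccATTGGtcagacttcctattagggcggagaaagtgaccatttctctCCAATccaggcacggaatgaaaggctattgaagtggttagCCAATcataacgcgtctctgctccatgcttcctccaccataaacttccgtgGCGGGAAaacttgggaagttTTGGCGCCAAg
Mcm5: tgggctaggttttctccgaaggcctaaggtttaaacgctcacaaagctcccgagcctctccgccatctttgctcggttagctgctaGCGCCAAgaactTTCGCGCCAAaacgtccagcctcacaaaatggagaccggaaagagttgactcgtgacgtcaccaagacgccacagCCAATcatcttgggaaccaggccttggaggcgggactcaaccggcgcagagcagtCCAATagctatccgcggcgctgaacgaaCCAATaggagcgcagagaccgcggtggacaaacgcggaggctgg

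Summed over the 36 members, the KO implants held 723, 785 and 759 CPM (MKM2, MKF1 and MKF2), a mean of 756 ± 30.8 CPM (SD, n = 3). The WT implants held 349, 260, 643 and 1710 CPM (MWM1, MWM2, MWF1 and MWF2), a mean of 741 ± 666 CPM (SD, n = 4). Visceral fat held 455, 300, 250, 340 and 210 CPM (EVM1, EVM2, EVFY1, EVFY2 and EVFN2; 311 ± 94.2 CPM, SD, n = 5), and subcutaneous fat 225 CPM in each of ESM1 and ESM2 (n = 2). The KO implants thus lay close together and above all fat libraries, while the WT implants ran from below EVM1 to above all KO implants, with their 2 male libraries low and their 2 female libraries high. Library values below are listed in this same order.

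The 24 mitotic members made up 51.7, 51.1 and 50.0% of the sum in the KO implants and 43.2, 38.0, 44.4 and 59.7% in the WT implants, 48.6, 38.6, 45.1, 47.9 and 31.4% in visceral fat and 31.8 and 27.4% in subcutaneous fat. They averaged 385 ± 14.1 CPM in the KO implants (SD, n = 3), 389 ± 428 CPM in the WT implants (n = 4), 136 ± 58.7 CPM in visceral fat (n = 5) and 66.5 ± 6.88 CPM in subcutaneous fat (n = 2). The 12 replication members averaged 371 ± 18.9 CPM in the KO implants, 352 ± 241 CPM in the WT implants, 175 ± 38.4 CPM in visceral fat and 158 ± 7.12 CPM in subcutaneous fat. The mitotic sum therefore spanned a wider range between the sides than the replication sum. By mean CPM, 19 members were highest in the KO implants and the others in the WT implants. These 17 rested on MWF2: without it the WT implants averaged 418 ± 200 CPM (SD, n = 3) over the 36 members, and all 36 were highest in the KO implants.

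**Figure D1:**
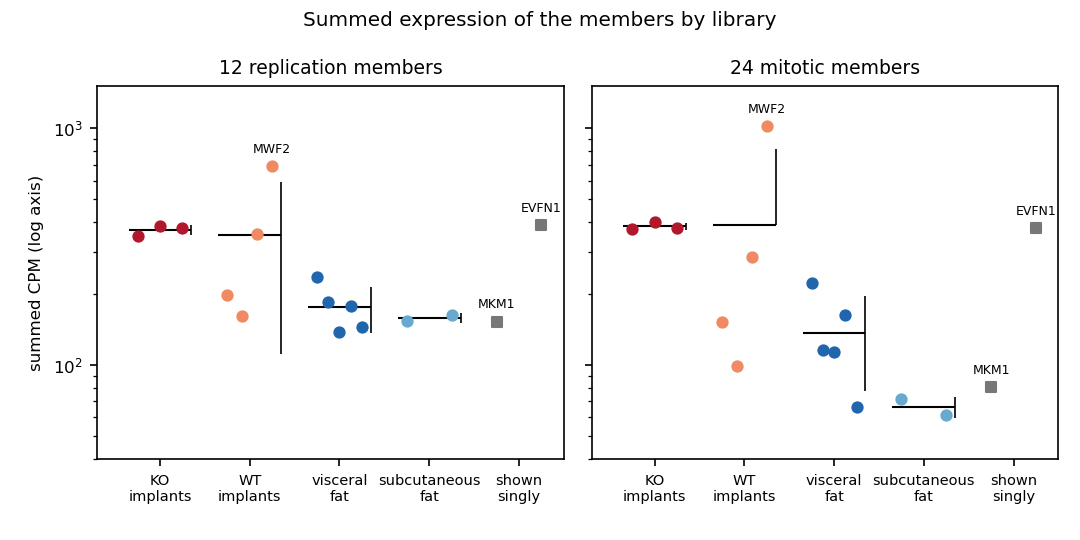
Summed CPM (log axis) of the 12 replication members and of the 24 mitotic members in each library, by side, with the mean (horizontal line) and SD (vertical line) of each side; MKM1 and EVFN1 stand apart from the means, and the lower SD bar is left out where it would pass 0. The 3 KO implants lie within 349 to 384 CPM for replication and 374 to 401 CPM for mitosis, while the WT implants span 161 to 690 CPM and 98.9 to 1020 CPM.

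The spread of the members between libraries was set against that of all tested genes within each side. Sides are not compared with each other, since a range grows with the number of libraries and visceral fat joins 3 codes. Over the 3 KO implants the highest library exceeded the lowest by a median of 0.16 on the log2 scale across members (0.02 to 0.56), against 0.28 for all 17964 tested genes and 0.24 for the 10482 genes in the same CPM range. Over the 5 visceral fat libraries this span had a median of 1.28 (0.44 to 2.66), against 0.71 for all tested genes. In the WT implants, MWF2 exceeded MWF1 for 36 of 36 members, by a median of 1.55 against 0.18 for all tested genes. MWM1 exceeded MWM2 for 36 of 36 members too, by a median of 0.48 against 0.05. Of the 36 members, 35 were highest in MWF2 of all 16 libraries, where 19.3% of the tested genes had their highest value, and Pcna was highest in EVFN1.

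**Figure D2:**
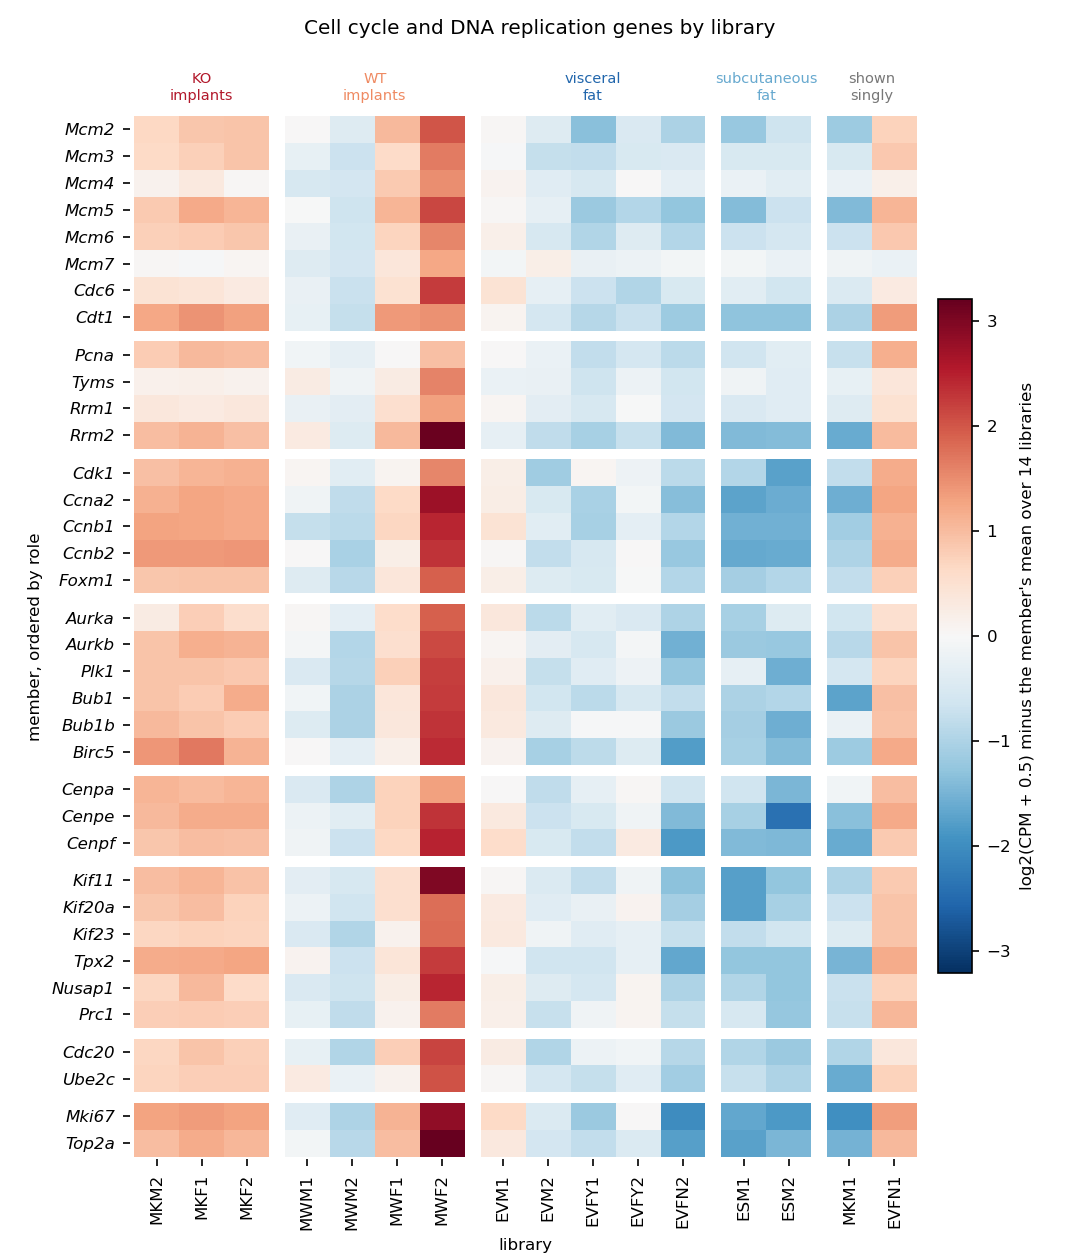
Each of the 36 members (rows, by role) in each of the 16 libraries (columns, by side, with MKM1 and EVFN1 last): colour is log2(CPM + 0.5) minus the mean of that member over 14 libraries, without MKM1 and EVFN1. The 3 KO implant columns and EVFN1 are alike and high, MWF2 is highest for 35 members, and MKM1 resembles the low fat columns.

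Compared per length, as mean CPM per kb of exon, Pcna was the most abundant member on every side, at 36.5 in the KO implants and at 22.1 in the WT implants, 13.6 in visceral fat and 13.2 in subcutaneous fat. In the KO implants Mcm6 (10.5 CPM per kb), Mcm3 (9.55), Cdt1 (8.61) and Mki67 (7.96) came next, and Cdc6 was lowest (0.579). In subcutaneous fat Mcm7 (6.61 CPM per kb) and Mcm4 (4.77) followed Pcna, Mki67 was at 0.907, and the kinetochore gene Cenpf was lowest (0.0976). The 3 members richest per length in subcutaneous fat were thus replication genes.

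In the KO implants, 28 of the 36 members rose over visceral fat and none fell, and 27 rose over subcutaneous fat with none falling (limma, Benjamini-Hochberg adjusted p under 0.05 over 17964 genes). Of all genes tested, 16.3% rose and 8.24% fell relative to visceral fat, and 13.4% rose and 4.87% fell relative to subcutaneous fat. The median member stood 1.48 higher on the log2 scale than in visceral fat (0.11 to 2.38, all genes 0.08) and 1.98 higher than in subcutaneous fat (all genes 0.12). The libraries of the KO implants lay wholly above those of visceral fat for 32 members (20.0% of all genes) and above those of subcutaneous fat for 36 (34.7% of all genes). Both fold changes share the KO libraries. All implants came after surgery, whereas visceral fat also held EVFN2, without surgery, and EVFY1 and EVFY2, whose code is not spelled out. The comparison with visceral fat therefore mixes tissue with surgery. EVM1 and EVM2, the visceral libraries labelled as after surgery, held 455 and 300 CPM over the members, against 723 to 785 CPM in the KO implants. By function, 8 of 12 replication and 20 of 24 mitotic members rose over visceral fat, with medians of 1.33 and 1.50, and 7 and 20 rose over subcutaneous fat, with medians of 1.35 and 2.29. A total of 26 members passed the test against both fats (11.4% of all genes rose over both), and 7 passed against neither: Mcm4, Mcm7, Cdc6, Tyms, Aurka, Kif23 and Nusap1.

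The helicase and its loaders were called for 5 of 8 members against each fat. Mcm6 (chromosome 1, 128331590 to 128359664, minus strand; positions here are of mm10 in GENCODE M21), a helicase subunit, stood at 46.7, 48.9 and 51.8 CPM in the KO implants, 23.1, 17.8, 45.1 and 82.7 CPM in the WT implants, 31.6, 18.9, 13.9, 20.7 and 14.2 CPM in visceral fat and 16.9 and 18.3 CPM in subcutaneous fat. Its KO libraries lay above all fat libraries, by 1.40 (SE 0.26, adjusted p = 0.00521) over visceral fat on the log2 scale (limma). Cdt1 (chromosome 8, 122568015 to 122573554, plus strand), which loads the helicase, stood at 25.2, 29.1 and 26.8 CPM in the KO implants, 8.55, 5.87, 28.2 and 29.4 CPM in the WT implants, 11.1, 6.86, 5.33, 6.19 and 4.34 CPM in visceral fat and 3.97 and 3.99 CPM in subcutaneous fat. It was high in the KO implants and both female WT implants and low in the male WT implants and in all fat. Its log2 fold change in the KO implants was 2.05 (SE 0.19, adjusted p = 0.000233) over visceral fat and 2.59 (SE 0.23, adjusted p = 0.000322) over subcutaneous fat, the smallest adjusted p of the members against both fats by limma.

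Mcm5 (chromosome 8, 75109569 to 75128439, plus strand), which with Mcm2 forms the gate of the helicase ring, stood at 22.8, 29.9 and 27.0 CPM in the KO implants, 12.4, 7.68, 27.3 and 56.5 CPM in the WT implants, 12.8, 10.1, 5.23, 6.30 and 4.93 CPM in visceral fat and 4.48 and 7.63 CPM in subcutaneous fat. All KO libraries exceeded every fat library, by 1.81 (SE 0.29, adjusted p = 0.00281) over visceral and 2.03 (SE 0.35, adjusted p = 0.00576) over subcutaneous fat on the log2 scale (limma). Mcm7 (chromosome 5, 138164583 to 138172422, minus strand) behaved otherwise, with 33.4, 31.5 and 34.0 CPM in the KO implants, 24.4, 21.3, 42.3 and 77.1 CPM in the WT implants, 30.4, 37.4, 27.3, 28.3 and 30.5 CPM in visceral fat and 30.4 and 28.1 CPM in subcutaneous fat. EVM2 lay above the KO implants, and the fold changes of 0.11 and 0.17 (log2) over visceral and subcutaneous fat did not pass the test. Mcm4 did not pass either, with fold changes of 0.39 and 0.45. Mcm7 overlaps Ap4m1 and Cops6 in the annotation, genes that reached 27.0 and 66.5 CPM. Since the strand setting of the counting is not given, the level of Mcm7 is uncertain. Among the others, Mcm2 and Mcm3 rose over both fats, with Mcm2 at 22.9 to 27.5 CPM in the KO implants, against 5.38 to 14.6 CPM in visceral fat. Mcm3 stood at 32.5 to 39.4 CPM in the KO implants, against 11.7 to 19.9 CPM in visceral fat. Cdc6, the other loader, stood at 2.79 to 3.21 CPM in the KO implants, against 0.877 to 3.18 CPM in visceral fat, so the groups overlapped, and passed against neither fat.

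Of the 4 genes for the clamp and the nucleotide supply, 3 rose over visceral and 2 over subcutaneous fat. Pcna (chromosome 2, 132249162 to 132253314, minus strand), the sliding clamp, stood at 79.8, 93.3 and 89.5 CPM in the KO implants, 41.2, 36.5, 45.5 and 88.6 CPM in the WT implants, 44.9, 38.7, 25.7, 30.0 and 24.5 CPM in visceral fat and 28.5 and 35.0 CPM in subcutaneous fat. The KO libraries lay above all fat libraries and above all WT implants, except that MKM2 lay below MWF2, with log2 fold changes of 1.47 (SE 0.21, adjusted p = 0.00161) over visceral and 1.42 (SE 0.25, adjusted p = 0.00651) over subcutaneous fat (limma). Rrm1 (chromosome 7, 102441695 to 102469771, plus strand), the large subunit of ribonucleotide reductase, stood at 39.4, 37.6 and 39.4 CPM in the KO implants, 25.7, 23.8, 44.8 and 76.6 CPM in the WT implants, 32.0, 23.9, 20.8, 30.1 and 20.2 CPM in visceral fat and 21.6 and 23.1 CPM in subcutaneous fat. KO implants lay above the fat libraries by a smaller margin here, 0.68 (SE 0.21, adjusted p = 0.0414) over visceral fat on the log2 scale by limma, and the change over subcutaneous fat did not pass the test. Rrm2 (chromosome 12, 24708241 to 24714146, plus strand), the small subunit that is made in S phase, stood at 13.3, 14.6 and 13.1 CPM in the KO implants, 7.94, 4.63, 13.8 and 61.8 CPM in the WT implants, 5.13, 3.41, 2.82, 3.62 and 2.08 CPM in visceral fat and 2.10 and 2.16 CPM in subcutaneous fat. The KO implants were tightly grouped and above all fat, with MWF2 far above everything else. Tyms, for thymidylate synthase, stood at 6.83 to 7.10 CPM in the KO implants, against 3.67 to 5.37 CPM in visceral fat, and passed against neither fat. Reads of Pcna and of the cyclin B gene Ccnb2 may be shared with their pseudogenes Pcna-ps2 and Ccnb2-ps, which reached 7.47 and 2.19 CPM.

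All 5 cyclins and their partners (Cdk1, Ccna2, Ccnb1, Ccnb2 and Foxm1) rose over both fats in the KO implants. Foxm1 (chromosome 6, 128362967 to 128376146, plus strand), the transcription factor of mitotic genes, stood at 18, 18.1 and 18.3 CPM in the KO implants, 6.95, 4.91, 12.6 and 36.9 CPM in the WT implants, 11.0, 6.82, 6.43, 9.43 and 4.69 CPM in visceral fat and 4.20 and 4.67 CPM in subcutaneous fat. Ccna2 (chromosome 3, 36564865 to 36572150, minus strand), cyclin A of S phase and G2, stood at 16.9, 18.2 and 17.6 CPM in the KO implants, 6.67, 3.95, 11.8 and 52.4 CPM in the WT implants, 8.71, 5.00, 3.32, 6.91 and 2.55 CPM in visceral fat and 1.87 and 2.11 CPM in subcutaneous fat. Ccnb1 (chromosome 13, 100778650 to 100786570, minus strand), cyclin B of mitotic entry, stood at 7.43, 7.30 and 7.04 CPM in the KO implants, 1.41, 1.30, 4.78 and 17.2 CPM in the WT implants, 3.96, 2.02, 1.06, 2.14 and 1.19 CPM in visceral fat and 0.624 and 0.626 CPM in subcutaneous fat. For each of these the KO libraries exceeded all fat libraries and lay between the female WT implants, and subcutaneous fat was lowest. Ccnb1 rose by 2.79 (SE 0.50, adjusted p = 0.00672) over subcutaneous fat (limma, log2). Cdk1, their catalytic partner, stood at 11.4 to 12.9 CPM in the KO implants, against 2.25 to 6.58 CPM in visceral fat. Ccnb2, the other cyclin B, stood at 11.9 to 12.1 CPM in the KO implants, against 1.54 to 4.35 CPM in visceral fat. Ccna2 overlaps Exosc9, which reached 17.1 CPM, so its level is uncertain as for Mcm7.

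Of the mitotic kinases and the checkpoint, 5 of 6 rose over each fat, all but Aurka. Bub1b (chromosome 2, 118598211 to 118641591, plus strand), for the checkpoint protein BubR1, stood at 14.9, 13.8 and 12.8 CPM in the KO implants, 5.03, 3.22, 9.19 and 37.2 CPM in the WT implants, 8.93, 5.12, 6.79, 6.85 and 2.79 CPM in visceral fat and 3.06 and 2.05 CPM in subcutaneous fat. Birc5 (chromosome 11, 117849251 to 117855743, plus strand), survivin of the chromosomal passenger complex, stood at 12.9, 15.7 and 10.5 CPM in the KO implants, 4.60, 3.56, 5.21 and 25.8 CPM in the WT implants, 4.97, 1.90, 2.31, 3.23 and 0.951 CPM in visceral fat and 1.93 and 1.42 CPM in subcutaneous fat. Both separated the KO implants from all fat libraries, and EVFN2 was lowest of visceral fat for each. Birc5 had the largest fold change of the members over visceral fat (log2 2.38, SE 0.51). Aurkb, the kinase of the same complex, stood at 9.47 to 11.3 CPM in the KO implants, against 1.31 to 5.02 CPM in visceral fat. Plk1, polo-like kinase, stood at 9.31 to 9.61 CPM in the KO implants, against 1.78 to 5.47 CPM in visceral fat, and Bub1, a kinase of the spindle checkpoint, at 3.72 to 4.94 CPM in the KO implants, against 0.804 to 2.57 CPM in visceral fat. These 3 lay wholly above visceral fat, whereas Aurka, the kinase of the spindle poles, overlapped it at 4.79 to 7.15 CPM in the KO implants, against 1.72 to 5.19 CPM in visceral fat.

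The centromere genes Cenpa, Cenpe and Cenpf all rose over both fats. Cenpa (chromosome 5, 30666777 to 30674830, plus strand), the centromeric histone, stood at 23.4, 22.1 and 23.4 CPM in the KO implants, 7.56, 5.20, 18.2 and 27.6 CPM in the WT implants, 10.9, 5.93, 8.80, 11.1 and 6.77 CPM in visceral fat and 6.75 and 3.59 CPM in subcutaneous fat. Its log2 fold changes in the KO implants were 1.45 (SE 0.29, adjusted p = 0.00729) over visceral and 2.12 (SE 0.35, adjusted p = 0.0045) over subcutaneous fat by limma. Cenpe (chromosome 3, 135212537 to 135273611, plus strand), the kinetochore motor, stood at 12.3, 13.8 and 13.8 CPM in the KO implants, 4.98, 4.40, 9.88 and 30.6 CPM in the WT implants, 7.25, 3.37, 3.87, 5.15 and 1.84 CPM in visceral fat and 2.50 and 0.683 CPM in subcutaneous fat. Both were uniform over the KO implants and above all fat libraries, while ESM1 and ESM2 differed from each other more than the KO implants did. Cenpf, a large kinetochore protein, stood at 9.47 to 10.2 CPM in the KO implants, against 1.01 to 7.64 CPM in visceral fat.

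Of the 6 spindle motors and midzone genes, 3 rose over visceral fat (Tpx2, Kif11 and Kif20a) and 4 over subcutaneous fat (these and Prc1). Tpx2 (chromosome 2, 152847964 to 152895321, plus strand), a spindle assembly factor, stood at 18.2, 18.4 and 19.0 CPM in the KO implants, 8.36, 4.57, 10.4 and 37.7 CPM in the WT implants, 7.37, 4.73, 4.68, 6.19 and 2.08 CPM in visceral fat and 2.89 and 2.90 CPM in subcutaneous fat. Kif11 (chromosome 19, 37376403 to 37421859, plus strand), the kinesin that separates the spindle poles, stood at 13.1, 14.3 and 12.7 CPM in the KO implants, 4.93, 4.24, 9.56 and 54.3 CPM in the WT implants, 6.64, 4.50, 3.52, 5.81 and 2.26 CPM in visceral fat and 1.53 and 2.39 CPM in subcutaneous fat. The KO libraries lay above all fat for both, and MWF2 was the highest library. Tpx2 rose by 2.04 (SE 0.40, adjusted p = 0.00748) over visceral fat (limma, log2). Kif20a, a motor of cytokinesis, stood at 7.21 to 8.65 CPM in the KO implants, against 1.66 to 5.13 CPM in visceral fat. Prc1, which bundles midzone microtubules, stood at 10.6 to 10.8 CPM in the KO implants, against 3.27 to 6.81 CPM in visceral fat, and passed over subcutaneous fat alone. Kif23, the motor of the central spindle, stood at 12.1 to 12.7 CPM in the KO implants, against 4.22 to 9.21 CPM in visceral fat, and Nusap1, a spindle microtubule protein, at 9.14 to 12.4 CPM in the KO implants, against 2.67 to 6.81 CPM in visceral fat. Both lay wholly above visceral fat and passed against neither fat. Kif20a, Nusap1 and Prc1 overlap other annotated genes (Cdc23 up to 44.4, Oip5 up to 3.28 and Rccd1 up to 12.8 CPM), so their levels carry the same uncertainty.

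The APC/C genes Ube2c and Cdc20 both rose over visceral fat, and Cdc20 alone over subcutaneous fat. Ube2c (chromosome 2, 164769898 to 164778822, plus strand) stood at 12.7, 13.6 and 13.5 CPM in the KO implants, 9.40, 6.44, 8.45 and 32.6 CPM in the WT implants, 7.87, 4.96, 4.27, 5.65 and 3.21 CPM in visceral fat and 4.31 and 3.59 CPM in subcutaneous fat. Cdc20 (chromosome 4, 118432901 to 118437352, minus strand), the activator of the APC/C, stood at 8.10, 9.47 and 8.46 CPM in the KO implants, 3.90, 2.20, 8.71 and 23.5 CPM in the WT implants, 5.86, 2.21, 4.12, 4.44 and 2.32 CPM in visceral fat and 2.21 and 1.82 CPM in subcutaneous fat. KO libraries exceeded all fat libraries for both, and the WT implants overlapped fat. Cdc20 overlaps Elovl1, a fatty acid elongase that reached 78.6 CPM, and is uncertain, while Tnnc2, which overlaps Ube2c, was at most 0.0594 CPM.

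Mki67 (chromosome 7, 135689784 to 135716361, minus strand), the proliferation marker that coats mitotic chromosomes, stood at 79.0, 83.0 and 78.3 CPM in the KO implants, 24.2, 15.8, 69.3 and 234 CPM in the WT implants, 49.9, 23.1, 13.8, 32.1 and 7.49 CPM in visceral fat and 9.70 and 8.54 CPM in subcutaneous fat. Top2a (chromosome 11, 98992943 to 99024189, minus strand) stood at 36.2, 42.0 and 38.1 CPM in the KO implants, 17.1, 9.49, 36.5 and 171 CPM in the WT implants, 22.8, 11.9, 10.3, 13.0 and 4.99 CPM in visceral fat and 5.05 and 6.21 CPM in subcutaneous fat. Every KO implant exceeded every fat library for both, and the visceral libraries themselves ran from EVM1 at the top to EVFN2 at the bottom. In the KO implants the log2 fold changes of Mki67 were 2.15 (SE 0.46, adjusted p = 0.0106) over visceral and 3.06 (SE 0.56, adjusted p = 0.00726) over subcutaneous fat (limma), and the change over subcutaneous fat was the largest of the 36 members. Top2a rose by 1.89 (SE 0.48, adjusted p = 0.0216) and 2.66 (SE 0.58, adjusted p = 0.0151) over these fats (limma).

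**Figure D3:**
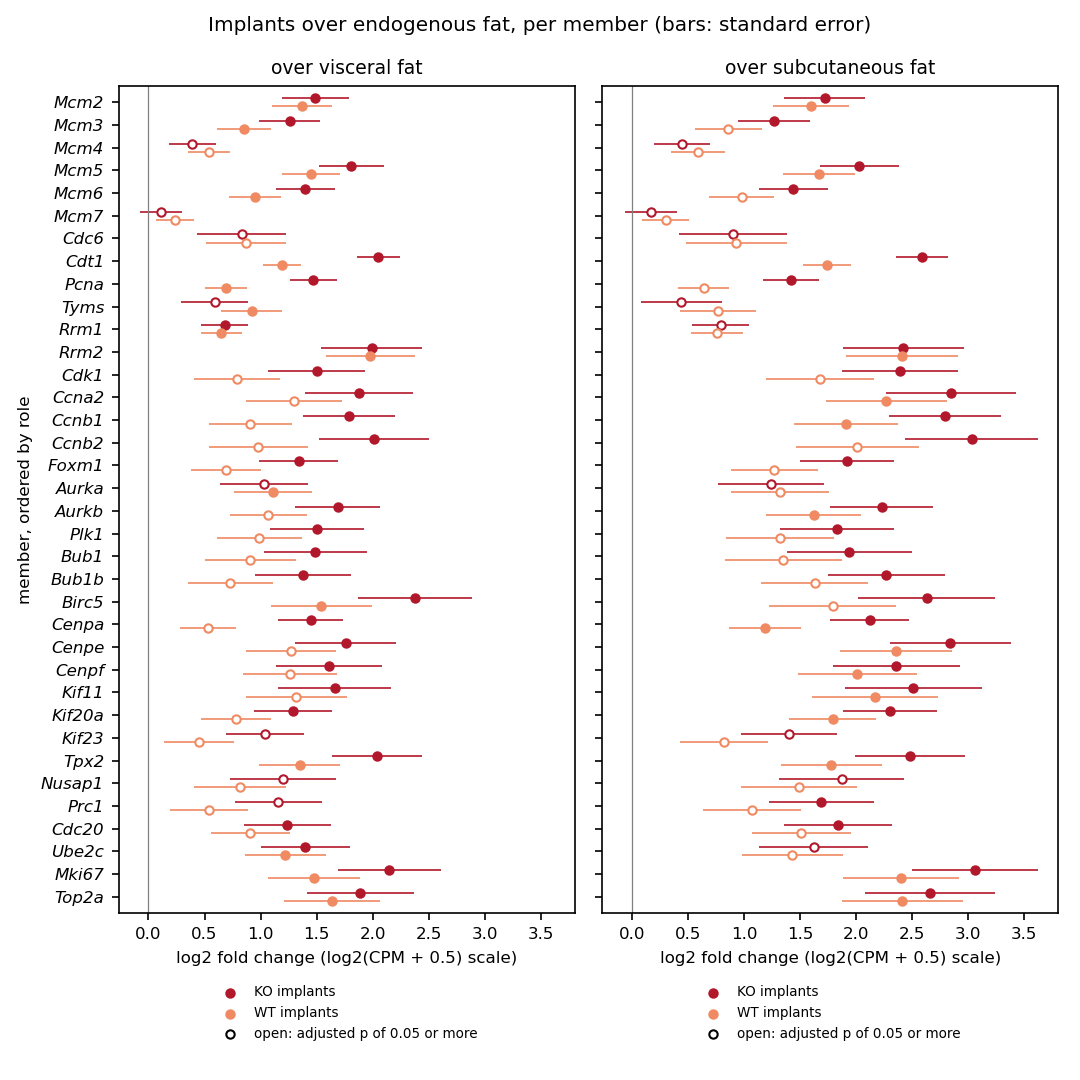
Log2 fold change with its SE (limma, on log2(CPM + 0.5)) of each member in the KO implants and the WT implants, over visceral fat and over subcutaneous fat; filled points have an adjusted p under 0.05. In the KO implants 28 members over visceral and 27 over subcutaneous fat are filled, in the WT implants 15 over each, and Mcm7 lies near 0 throughout.

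These counts rested on the choice of libraries. With MKM1 and EVFN1 kept under their labels, no member passed in any implant comparison with fat, where 0.0% of all genes rose for KO implants over visceral and 0.117% over subcutaneous fat, and the medians of the members were 0.73 and 1.51. Over visceral fat, 13 members rose without MKF1 (10.8% of all genes), 14 without MKF2 (11.9%), 17 without EVFY1 (13.5%) and 13 without EVFN2 (13.0%). Over subcutaneous fat, 9 rose without ESM1 (8.23% of all genes) and 8 without ESM2 (6.42%), when the remaining library is assumed to vary like those of the other groups. No member fell in any of these.

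Markers of other cell types moved with the KO implants. All 6 macrophage markers (Csf1r, Adgre1, Cd68, Cd14, Gpnmb and Trem2) rose over visceral fat and 5 rose over subcutaneous fat. Their sum was 3900 to 4520 CPM in the KO implants, against 419 to 841 CPM in the WT implants, 450 to 1722 CPM in visceral fat and 501 to 614 CPM in subcutaneous fat, and none was at 0. Of visceral fat, EVM1 and EVM2 were highest in macrophage markers (1722 and 1346 CPM), and EVM1 was also highest in the members' sum. EVM2 held 300 CPM over the members, below EVFY2 at 340 CPM, whose macrophage markers summed to 583 CPM. In the WT implants MWF2 was lowest in macrophage markers (419 CPM) and highest in the members' sum (1710 CPM). Of 5 erythroid precursor markers 1 was tested and rose over visceral fat (sum 25.2 to 33.5 CPM in the KO implants, against 7.21 to 15.1 CPM in visceral fat). The 4 liver markers rose in both kinds of implant over both fats, with sums of 42.1 to 7577 CPM in the KO implants and 2174 to 9805 CPM in the WT implants, against at most 62.1 CPM in fat. Over visceral fat 4 of 9 tested sensory neuron markers, 2 of 5 thymocyte, 2 of 4 germinal centre B cell, 2 of 4 Schwann and satellite glia, 2 of 3 lung and 1 of 4 plasma cell markers rose as well, with thymocyte sums of 33.7, 9.28 and 2.06 CPM in MKM2, MKF1 and MKF2. Of 8 adipocyte markers 3 fell relative to visceral fat (sum 18503 to 23294 CPM in the KO implants, against 24549 to 37419 CPM in visceral fat), as did 1 adipocyte progenitor and 1 endothelial marker of 4 each. The part of these cells in the members' change was not tested.

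In the WT implants, 15 of 36 members rose over visceral fat (15.8% of all genes rose and 6.45% fell) and 15 rose over subcutaneous fat (8.54% of all genes rose and 1.82% fell), with none falling in either (limma, Benjamini-Hochberg). The median member stood 0.93 higher on the log2 scale than in visceral fat (all genes 0.11) and 1.56 higher than in subcutaneous fat (all genes 0.14). Replication members made up 9 of the 15 over visceral fat and 4 of the 15 over subcutaneous fat, and mitotic members 6 and 11. The libraries lay wholly above visceral fat for 1 member, Tyms (9.33% of all genes), and above subcutaneous fat for 25 (19.1% of all genes). These comparisons share the fat libraries with those of the KO implants, and the comparison with visceral fat again mixes tissue with surgery.

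Cdt1 again had the smallest adjusted p, with log2 fold changes of 1.19 (SE 0.17, adjusted p = 0.00231) over visceral and 1.74 (SE 0.21, adjusted p = 0.00306) over subcutaneous fat (limma). Mcm5 rose by 1.45 (SE 0.26, adjusted p = 0.00613) and 1.67 (SE 0.32, adjusted p = 0.0152) over these fats, and Rrm2 by 1.98 (SE 0.40, adjusted p = 0.0103) and 2.41 (SE 0.50, adjusted p = 0.0194) (limma, log2). Mcm2, another helicase subunit, rose by 1.37 (SE 0.27, adjusted p = 0.0092) over visceral and 1.60 (SE 0.34, adjusted p = 0.0203) over subcutaneous fat (limma, log2), with 14.5, 10.6, 30.0 and 59.2 CPM in the WT implants. Over visceral fat Mcm6 rose by 0.95 (SE 0.23, adjusted p = 0.021) and Top2a by 1.64 (SE 0.43, adjusted p = 0.0274), and over subcutaneous fat Cenpe rose by 2.36 (SE 0.50, adjusted p = 0.0216) and Mki67 by 2.40 (SE 0.52, adjusted p = 0.0221) (limma, log2). None of the 5 cyclins and partners passed over visceral fat, and Ccna2 and Ccnb1 passed over subcutaneous fat. In both KO and WT implants, 7 members passed over both fats: Mcm2, Mcm5, Cdt1, Rrm2, Tpx2, Mki67 and Top2a (3.91% of all genes rose in all 4 comparisons).

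The count for WT implants turned on single libraries. Over visceral fat it was 33 without MWF1 (13.1% of all genes), 7 without MWF2 (11.9%), 4 without MWM1 (7.23%) and 7 without MWM2 (9.0%). It was 5 without each of EVFY1, EVM2 and EVFN2, where 10.8%, 12.8% and 11.7% of all genes rose. Over subcutaneous fat it was 34 without MWF1 (8.47% of all genes), 1 without MWM1 (4.17%), 9 without MWM2 (6.03%), 1 without ESM1 (1.44%) and 3 without ESM2 (3.81%). With all 16 libraries as labelled no member passed over either fat, where 8.03% and 2.2% of all genes rose. Since all groups share 1 estimate of the spread, MKM1 and EVFN1 change it although neither is in these comparisons with subcutaneous fat.

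Lymphoid, nerve, lung and liver markers moved with the WT implants. The 5 T cell markers rose over both fats, with sums of 6.44, 15.6, 251 and 312 CPM in the WT implants, 5.23 to 13.0 CPM in visceral fat and 3.86 to 5.13 CPM in subcutaneous fat. Of the 4 B cell markers 1 rose over visceral and 4 over subcutaneous fat, with sums of 7.61, 22.8, 665 and 381 CPM in the WT implants, against at most 26.9 CPM in any fat library. The 7 thymocyte markers, of which 5 were tested, summed to 5.73, 9.26, 63.8 and 415 CPM in the WT implants, and 3 rose over visceral and 2 over subcutaneous fat. In visceral fat they summed to at most 2.06 CPM, and Rag1 and Rag2, which rearrange antigen receptor genes, were at 0 in all 5 libraries. Among the WT implants Rag1 and Rag2 held reads in MWF2 alone, at 159 and 11.0 CPM, and were at 0 in MWM1, MWM2 and MWF1. The 4 thymic epithelium markers, of which 2 were tested and none passed, summed to 118 CPM in MWF2 and to at most 4.32 CPM in the other WT implants. Of the KO implants, MKM2 also held Rag1 at 12.8 CPM and Rag2 at 0.56 CPM. Its thymic epithelium markers summed to 12.2 CPM, against 3.43 and 2.32 CPM in MKF1 and MKF2. MWF2 was the library where 35 members were highest. Over visceral fat 8 of 9 tested sensory neuron markers (sum 49.4 to 66.9 CPM in the WT implants, against 8.50 to 12.9 CPM in visceral fat), all 4 Schwann and satellite glia and all 3 lung markers (109 to 459 CPM, against at most 0.119 CPM) rose too, beside 3 of 4 germinal centre B cell and 2 of 4 plasma cell markers and 1 of 4 keratinocyte markers. Of 8 adipocyte markers 6 fell relative to visceral fat (sum 10941 to 25630 CPM in the WT implants, against 24549 to 37419 CPM), as did 1 macrophage and 2 endothelial markers. The part of all these cells in the members' levels was not tested.

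**Figure D4:**
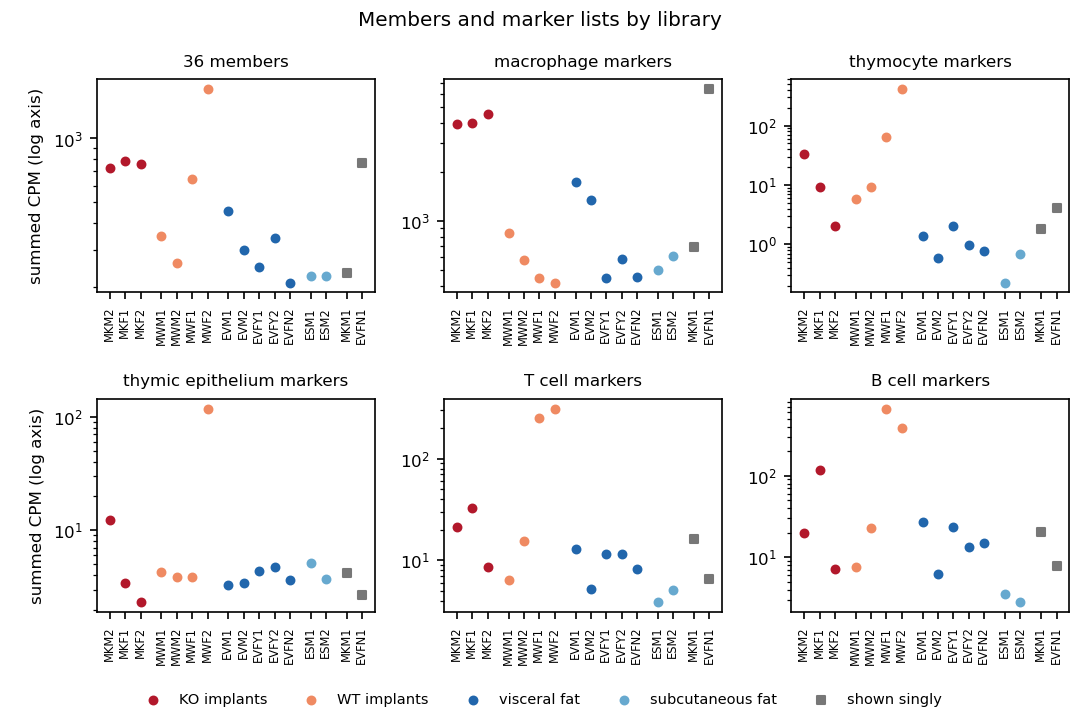
Summed CPM (log axes) of the 36 members and of the macrophage, thymocyte, thymic epithelium, T cell and B cell marker lists in each library, by side. Macrophage markers stand at 3900 to 4520 CPM in the 3 KO implants, and the thymocyte, thymic epithelium, T cell and B cell sums are at 415, 118, 312 and 381 CPM in MWF2.

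Between KO and WT implants, 1 of 36 members passed the test: Cdt1 rose in the KO implants by 0.86 (SE 0.20, adjusted p = 0.0263) on the log2 scale (limma), where 6.67% of all genes rose and 4.1% fell. Of the members 31 had a positive fold change, with a median of 0.50 (all genes -0.06), and for none did the libraries separate, while 14.3% of all genes lay wholly higher and 12.6% wholly lower. Neither Pcna, at 0.78 (SE 0.21, adjusted p = 0.0512), nor Mki67, at 0.66 (SE 0.47, adjusted p = 0.397), passed (limma, log2). Set against the male WT implants alone, the KO implants lay wholly higher for 35 of 36 members (35.8% of all genes), all but Tyms. The female WT implants lay above the male WT implants for 34 members (43.8% of all genes).

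The Cdt1 call was lost without any one of MKF1, MKF2, MWF1 and MWM2, and no member then passed (4.59%, 3.46%, 4.36% and 3.47% of all genes rose). Without MWF2 the count was 9 (6.53% of all genes), with 36 positive fold changes and a median of 0.88. Without MKM2 it was 2 (6.75% of all genes). With all 16 libraries as labelled no member passed (0.685% of all genes), 18 fold changes were positive and the median was -0.03. Median-of-ratios scaling gave 3 members (7.82% of all genes) and edgeR on the recovered reads 2 (7.14% of all genes). All 6 macrophage markers rose in the KO implants over the WT implants, as did 1 erythroid and 1 germinal centre B cell marker. Of the others 6 sensory neuron, 3 lung, 3 Schwann and satellite glia, 1 adipocyte, 1 T cell, 1 thymocyte and 1 plasma cell marker fell, and the part of these cells in the members' values was not tested.

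Within the female groups the direction was the other way for most members. Fold changes of MKF over MWF were negative for 31 and positive for 5 members, with a median of -0.40 (all genes -0.20). Mcm4 (chromosome 16, 15623897 to 15637400, minus strand), a helicase subunit, stood at 26.4 and 21.7 CPM in the female KO implants, against 37.9 and 59.7 CPM in the female WT implants, and fell by 0.98 (SE 0.27, adjusted p = 0.0416) on the log2 scale (limma), the only member past the threshold, where 6.0% of all genes rose and 10.4% fell. It also fell under median-of-ratios scaling. Besides Mcm4, the female KO implants lay wholly below the female WT implants for Mcm2, Mcm7, Cdc6, Tyms and Rrm1, so for 6 members (45.0% of all genes), and above for Pcna alone (22.0% of all genes). The Mcm4 call was lost without MKF1 and without MKF2. Without MWF1, 8 members fell (5.89% of all genes), and without MWF2, 1 member rose (4.6% of all genes) and 29 fold changes were positive, with a median of 0.32, so the direction of the set turned on MWF2.

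The male groups held MKM2 as the 1 KO library, which is assumed to vary like the libraries of the other groups, and MWM1 and MWM2, whose Xist and Ddx3y went against their label. Between them all 36 fold changes of MKM over MWM were positive, with a median of 1.32 (all genes 0.12). Cdt1 stood at 25.2 CPM in MKM2, against 8.55 and 5.87 CPM in the male WT implants, and rose by 1.76 (SE 0.30, adjusted p = 0.0349) on the log2 scale (limma), the 1 member past the threshold, where 1.32% of all genes rose and 0.0668% fell. At an unadjusted p under 0.05 there were 16 members (14.9% of all genes). The call was lost without MWM1 and without MWM2. Mki67 stood at 79.0 CPM in MKM2, against 24.2 and 15.8 CPM in the male WT implants, a log2 difference of 1.98 (SE 0.73, adjusted p = 0.252) by limma. In the females it stood at 83.0 and 78.3 CPM in the KO implants, against 69.3 and 234 CPM in the WT implants, with -0.66 (SE 0.60, adjusted p = 0.462) (limma). With MKM1 added as labelled, the male median was 0.44 and 31 members were positive.

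The KO effect in the groups labelled male minus that in the groups labelled female, with the same 1 male KO library, was positive for all 36 members, with a median of 1.66 (0.51 to 2.64, all genes 0.25). None passed the test (limma; 0.551% of all genes passed as higher and 0.0111% as lower), 20 had an unadjusted p under 0.05 (16.0% of all genes), and edgeR called none (0.0% of all genes). Without MWF1, 2 members passed (0.546% of all genes) and the median was 2.45, and without MWF2 none passed (0.0223% of all genes) and it was 0.96, with 6 members at an unadjusted p under 0.05. The implants labelled male, among them the MWM libraries with Xist as high as in MWF1 and the MKF libraries, were below those labelled female for all 36 members, with a median of -0.91 (all genes -0.07), and Cdt1 fell by 1.05 (SE 0.20, adjusted p = 0.0391) on the log2 scale (limma), where 0.49% of all genes rose and 1.78% fell. That call was lost without any one of MKF1, MKF2, MWF1, MWF2, MWM1 and MWM2, and by edgeR. Within the KO implants, MKM2 differed from MKF1 by a median of -0.1 over the members and from MKF2 by -0.03. MKM2 was the higher library for 7 members against MKF1 and for 13 against MKF2.

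**Figure D5:**
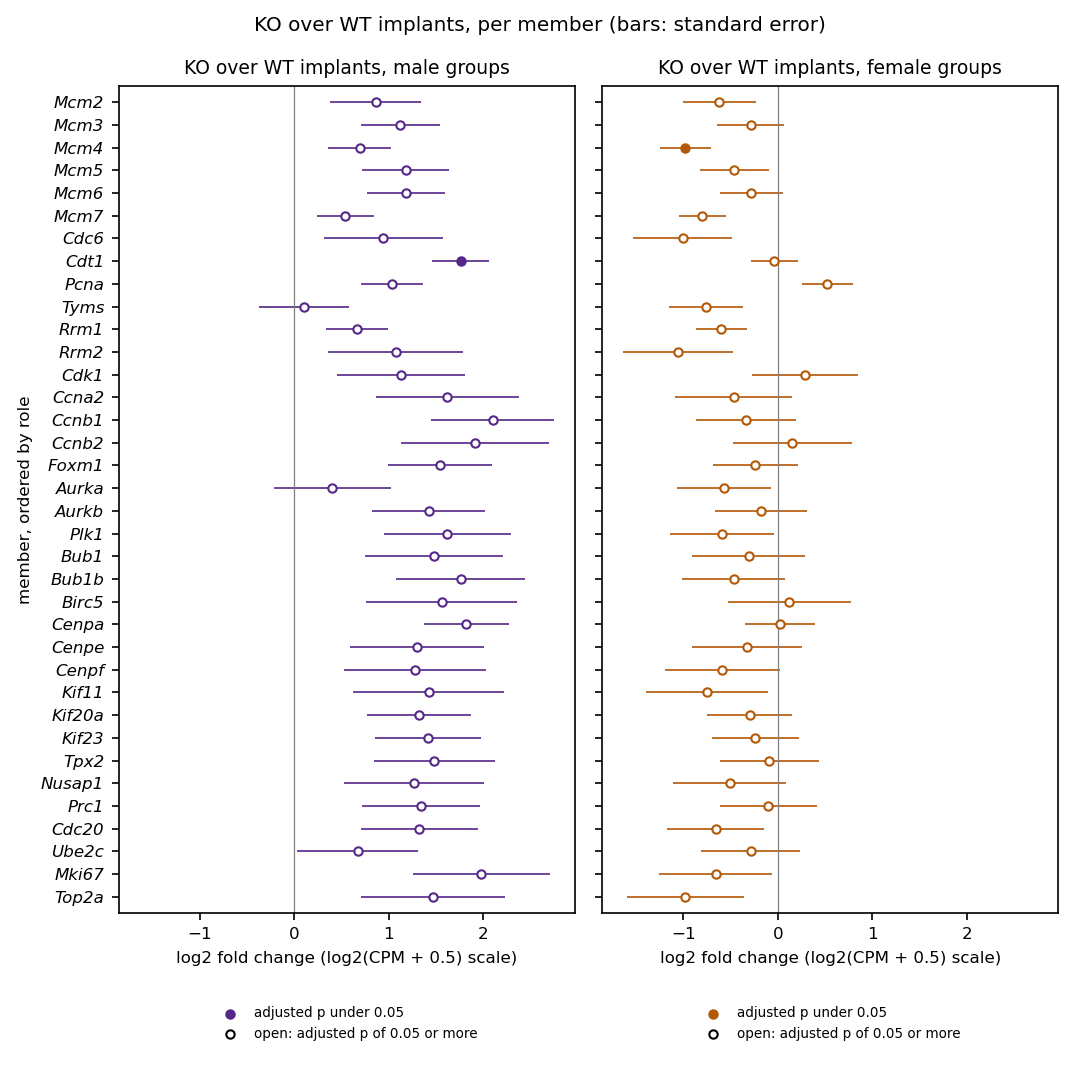
Log2 fold change with its SE (limma) of each member in KO over WT implants, for the groups labelled male (MKM2, the 1 KO library, over MWM1 and MWM2) and those labelled female (MKF over MWF). All 36 male values lie above 0, with a median of 1.32, and 31 of 36 female values lie below 0, with a median of -0.40.

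Scaling by the median of ratios in place of CPM moved the median of all genes by -0.23 on the log2 scale for the difference of the KO effects, by 0.12 and -0.12 for the female and male KO effects and by -0.11 for both implants over subcutaneous fat. Relative to that median the members' median was unchanged to within 0.03: 1.41 against 1.38 for the difference, -0.20 against -0.19 in females, 1.20 under both in males, 1.42 under both for the WT implants over subcutaneous fat and 1.86 against 1.87 for the KO implants, where the CPM value is given before the rescaled one.

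Between visceral and subcutaneous fat no member passed the test (limma, where 0.568% of all genes rose and 0.629% fell). Fold changes were positive for 34 members, with a median of 0.48 (all genes 0.05), 2 had an unadjusted p under 0.05 (10.1% of all genes), and edgeR called none (0.362% of all genes rose and 0.69% fell). Visceral fat lay wholly above subcutaneous fat for 6 members (7.05% of all genes): Cdt1, Ccna2, Ccnb1, Ccnb2, Foxm1 and the checkpoint kinase gene Bub1. Subcutaneous fat was all male and after surgery, whereas visceral fat joined libraries with and without Ddx3y reads and with and without surgery, so this contrast mixes depot with sex and surgery. EVM1 and EVM2, which match subcutaneous fat in both, held 455 and 300 CPM over the 36 members, against 225 CPM in each of ESM1 and ESM2. EVFY over EVFN, with EVFN2 as the 1 library of its group, gave no call (0.0% of all genes), 33 positive fold changes and a median of 0.62 (all genes 0.08), with no member at an unadjusted p under 0.05 (2.3% of all genes) and none by edgeR. With EVFN1 added as labelled, 5 fold changes were positive and the median was -0.25. Within the codes, EVM1 exceeded EVM2 for 35 members by a median of 0.72 (all genes 0.13) and EVFY2 exceeded EVFY1 for 33 by 0.37 (all genes 0.12), while ESM1 was above ESM2 for 17.

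Read singly, MKM1 held 232 CPM over the 36 members, against 723 CPM in MKM2, and was below MKM2 for all 36, by a median of 1.72 on the log2 scale. EVFN1 held 766 CPM, against 210 CPM in EVFN2, and was above EVFN2 for 35 members, by a median of 1.98. Mki67 stood at 7.77 CPM in MKM1 and 82.2 CPM in EVFN1, Cdt1 at 4.90 and 27.7 CPM, and Pcna at 26.8 and 102 CPM. MKM1 thus read like the fat libraries and EVFN1 like the KO implants. Set against single libraries, EVFN1 differed from MKF1 by a median of -0.09 over the members and MKM1 from EVFY1 by -0.25. EVFN1 also held macrophage markers at 6430 CPM, against 688 CPM in MKM1.

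Further cell cycle genes were followed in lists outside the 36. Of 44 other replication genes, 43 were tested, and 16 rose in the KO implants over visceral and 19 over subcutaneous fat, with medians of 0.71 and 0.92, where 16.3% and 13.4% of all genes rose and their medians were 0.08 and 0.12. In the WT implants 17 and 10 rose, with medians of 0.63 and 0.78, where 15.8% and 8.54% of all genes rose and their medians were 0.11 and 0.14. Tk1, thymidine kinase of the salvage pathway, stood at 24.4, 27.4 and 25.5 CPM in the KO implants, 10.9, 6.04, 10.9 and 25.2 CPM in the WT implants, 10.3, 5.62, 7.29, 6.80 and 5.82 CPM in visceral fat and 4.48 and 3.30 CPM in subcutaneous fat. It rose in the KO implants by 1.83 (SE 0.33, adjusted p = 0.0048) over visceral and 2.57 (SE 0.40, adjusted p = 0.00351) over subcutaneous fat (limma, log2). Rfc5, of the clamp loader, rose by 1.10 (SE 0.18, adjusted p = 0.00291) and Dbf4, the activator of Cdc7 kinase, by 1.29 (SE 0.22, adjusted p = 0.0035) over visceral fat (limma, log2).

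Of 50 other mitosis genes, 30 rose in the KO implants over visceral and 36 over subcutaneous fat, with medians of 1.38 and 1.74, against the same values of all genes. In the WT implants 14 rose and 1 fell over visceral fat and 17 rose over subcutaneous fat, with medians of 0.88 and 1.42. The kinetochore genes Spc25 and Spc24 rose in the KO implants by 2.08 (SE 0.34, adjusted p = 0.00291) and 1.82 (SE 0.36, adjusted p = 0.00726) over visceral fat, and Racgap1, of the cytokinetic midzone, by 1.35 (SE 0.25, adjusted p = 0.005) (limma, log2). Pttg1, securin, rose in the WT implants by 0.84 (SE 0.11, adjusted p = 0.00171) over visceral fat, and the condensin subunit Smc4 by 0.83 (SE 0.17, adjusted p = 0.0108) (limma, log2). Smc4 fell in the female KO implants relative to the female WT implants by 1.29 (SE 0.24, adjusted p = 0.00981) (limma, log2). Anln, anillin of the division ring, was the only gene of this list called between visceral and subcutaneous fat, by 1.22 (SE 0.23, adjusted p = 0.0458) (limma, log2).

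Outside the cell cycle lists, the tested genes whose levels followed the members' mean log2(CPM + 0.5) most closely over the 16 libraries were Cep55 and Shcbp1 (Spearman rho 0.971 each), Asf1b and Ska3 (0.968), S1pr5 and Fanci (0.965) and Cdipt and Spag5 (0.959). Without MWF2 these were 0.950 to 0.975. Iqgap3 (0.975), Tlr1 and Otulinl (0.971 each) and Myo1e (0.964) then ranked above Asf1b, Ska3, Fanci and Spag5. The points share libraries and depth, so these are descriptions with no test. Cep55, for a protein of the midbody, stood at 4.48, 6.57 and 5.28 CPM in the KO implants, 1.88, 1.19, 3.40 and 9.61 CPM in the WT implants, 2.62, 1.51, 1.66, 1.86 and 1.37 CPM in visceral fat and 0.681 and 0.797 CPM in subcutaneous fat, highest in MWF2 and lowest in subcutaneous fat.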

How the data were processed

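RNA was sequenced in 16 mouse libraries after depletion of ribosomal RNA and priming with random hexamers, per the labels' protocols, although polyA RNA is the molecule the labels name. Reads were handled with featureCounts (Subread 1.6.3), STAR 2.5.4, FastQC 0.11.4, cutadapt 2.7 and build mm10, per the submitters' processing notes. For order, settings, strand and annotation, nothing is given in the sources used here. The authors deposited CPM values, each library summing to 1000000, for 54658 gene symbols. All nonzero values (100%) were whole multiples of 1 read within 0.001 reads, which returned the counts, and 1 read was worth 0.0388 to 0.0608 CPM. GENCODE M21 holds 54106 of the symbols (99%).

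The test took genes that reached 1 CPM in 2 or more of 16 libraries (17964 genes; all 36 members, of which 30 had at least 1 CPM in every library). Differences between equally weighted group means were tested with limma 3.58.1 (R 4.3.3; mean-variance trend, robust) on log2(CPM + 0.5), which understates the change of low genes. The model held 14 libraries, without EVFN1 and MKM1, with 6 residual degrees of freedom, with Benjamini-Hochberg adjustment over all tested genes and a threshold of 0.05. The steps were tested on simulated data. Within codes, libraries differed by more than sampling noise (chi-square per degree of freedom 22.3 to 214). Same-numbered libraries did not deviate together (correlations of the replicate differences -0.443 to 0.335), so the numbers were not used as pairs. Means are given with SD, and no interval covers more than these libraries.

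The members, the roles and the other lists were chosen with earlier results of these data known. The members with the highest mean CPM of each role, 2 per role, are given library by library, as are some further called members. At most 6 called members per comparison by smallest adjusted p, and at most 4 genes of each other list, are given with fold changes. A few genes of those lists are not reported here. Alternatives were all 16 libraries as labelled, pseudocounts of 0.1 and 2, no filter, median-of-ratios scaling (DESeq2 1.42.0), edgeR 4.0.16 on the recovered counts, a replicate block and leaving out each library. On the recovered counts edgeR called 2765 genes higher and 1708 lower in the KO implants against visceral fat, where limma called 2933 and 1480.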

Additional observations from a re-analysis of the deposited data

Results flagged for a closer look

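In the WT implants, the library MWF2 stood far above the other 3 (the gap to the next library as a share of the range) for 10 members: Tyms at 19.4 CPM, Rrm2 at 61.8 CPM, Cdk1 at 17.5 CPM, Ccna2 at 52.4 CPM, Ccnb2 at 23.0 CPM, Birc5 at 25.8 CPM, Kif11 at 54.3 CPM, Nusap1 at 33.5 CPM, Ube2c at 32.6 CPM and Top2a at 171 CPM. In visceral fat, EVM1 stood far above the other 4 for Bub1, at 2.57 CPM. Over 74 values and sides looked at, 11 were this far from the others. Chance flags about 1 in 20 groups, and values of 1 library are not independent. Thymocyte markers summed to 415 CPM and thymic epithelium markers to 118 CPM in MWF2, and their part was not tested.

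The KO effect on Cdkn1b, the inhibitor p27, differed between the male and the female groups by 1.30 on the log2 scale (SE 0.20, limma, adjusted p = 0.0391), and 8 of 13 alternatives, edgeR among them, did not pass. MKM2 alone stood for the male KO implants and is assumed to vary like the other libraries, and the MWM libraries held Xist at 494 and 466 CPM, against their label. The library labelled EVFN1, which entered no comparison, held 766 CPM over the 36 members, against 210 CPM in EVFN2.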

How the results depend on the processing

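The call counts depended most on which libraries were kept. With all 16 libraries as labelled, 0 members passed for KO over WT implants, within the female and within the male groups, and for each implant over each fat. Leaving out each library in turn gave 13 to 29 members for the KO implants over visceral fat, 8 to 24 over subcutaneous fat, 4 to 33 for the WT implants over visceral fat and 1 to 34 over subcutaneous fat. It gave 0 to 9 for KO over WT implants, 0 to 8 within the female groups (1 higher without MWF2, a reversal), 0 to 1 within the male groups, 0 to 2 for the difference of the KO effects and 0 for male over female implants. Median-of-ratios scaling gave 3 members for KO over WT and 2 for male over female implants, and edgeR 2 and 0. A pseudocount of 0.1 gave 0 for male over female implants, a pseudocount of 2 gave 9 for the WT implants over subcutaneous fat, and no filter gave 0 within the female groups. The replicate block, although the numbers do not pair the libraries, gave 0 within the female groups and for male over female implants, and changed no other count by over 1.5 times. No alternative called a member between visceral and subcutaneous fat or between EVFY and EVFN. Of 1348 single-gene values under alternatives (99 gene results), 1079 kept direction and call, 268 lost the call and 1 turned: Mki67 in KO over WT implants, -0.15 with all 16 libraries (limma, adjusted p = 0.934; -0.15 to 1.10 over its alternatives). The causes were not tested. Low members rest on few reads: 4 for Bub1 in MKM1.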

Other observations

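Of 18 cell cycle inhibitors and pocket proteins, 4 rose and 2 fell in the KO implants relative to visceral fat, where 16.3% of all genes rose and 8.24% fell, and 5 rose and 1 fell in the WT implants, where 15.8% rose and 6.45% fell. Their median fold changes were 0.14 and 0.29 on the log2 scale, against 0.08 and 0.11 for all genes. These are counts of few genes, and their difference from the shares of all genes was not tested. Cdkn2a, the locus of p16 and p19ARF, rose in the KO implants by 1.63 (SE 0.28, adjusted p = 0.00383) and Wee1, which holds Cdk1 inactive, by 0.76 (SE 0.18, adjusted p = 0.0175) over visceral fat (limma, log2). Btg2, an antiproliferative gene, fell by 0.95 (SE 0.15, adjusted p = 0.00246) and Cdkn1c, p57, by 0.78 (SE 0.17, adjusted p = 0.01) (limma, log2). Btg2 stood at 48.5, 53.1 and 44.6 CPM in the KO implants, 78.8, 67.8, 114 and 122 CPM in the WT implants, 56.5, 63.6, 85.8, 59.1 and 195 CPM in visceral fat and 81.4 and 69.8 CPM in subcutaneous fat, with EVFN2 far above the other visceral libraries. In the WT implants Cdkn1c fell by 1.48 (SE 0.15, adjusted p = 0.000632) relative to visceral fat (limma, log2).

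Between KO and WT implants, Btg2 fell by 0.93 (SE 0.15, adjusted p = 0.00642), Cdkn1b by 0.48 (SE 0.10, adjusted p = 0.0188) and Ccng1 by 0.93 (SE 0.25, adjusted p = 0.0486), and Cdkn1c rose by 0.70 (SE 0.17, adjusted p = 0.0334) (limma, log2). Cdkn1b, p27, stood at 41.8 and 38.0 CPM in the female KO implants, against 90.1 and 86.2 CPM in the female WT implants, and fell by 1.13 (SE 0.13, adjusted p = 0.00135) there (limma, log2), in 11 of 11 alternatives too. Of 9 cyclins and kinases of G1, Cdk6 stood at 55.1, 52.3 and 50.2 CPM in the KO implants, 22.4, 17.7, 24.5 and 51.7 CPM in the WT implants, 36.4, 15.4, 25.6, 42.0 and 18.7 CPM in visceral fat and 8.62 and 10.8 CPM in subcutaneous fat. Cdk6 rose in the KO implants by 1.10 (SE 0.34, adjusted p = 0.0459) over visceral and 2.40 (SE 0.42, adjusted p = 0.00581) over subcutaneous fat (limma, log2), and Ccnd3, cyclin D3, fell by 0.57 (SE 0.16, adjusted p = 0.0327) relative to visceral fat.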
